A study of Mus musculus with 12 samples.

Results

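The genes described here reached their highest level in pre-plasmablasts, the middle of 3 sorted stages of plasma cell differentiation. Of 24325 gene symbols in the files, 61 met the rule. The rule took the mean of log2(FPKM + 1) over the 4 libraries of each population, both genotypes together. A member had a pre-plasmablast mean of at least 2 that exceeded the activated B cell mean and the plasmablast mean by at least 0.5 each. FPKM is a fragment count divided by transcript length and by library size. Before symbols of small RNA, ribosomal protein and histone genes were dropped, 72 genes met the values, and 11 were dropped. These 11 were Hist1h4f, Mir1894, Mir5133, Mir686, Mir704, Mir7082, Mir8094, Rpl38, Snora81, Snord15b and Snord32a. The members make up 0.267% of the symbols that could have been kept, and all 61 were among the 11069 genes tested.

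RNA was sequenced from spleen B cells of C57BL/6 mice, taken with beads against B220 and grown with lipopolysaccharide (LPS, 25 µg/ml) for 4 days. All mice carried Prdm1+/gfp, so 1 of their Prdm1 alleles, the gene of the transcription factor Blimp1, held a green fluorescent protein reporter, and they were Mzb1+/+ (wt) or Mzb1-/- (ko). Activated B cells (ActB) were sorted as CD138- and reporter negative, pre-plasmablasts (PrePB) as CD138- and reporter positive, and plasmablasts (PB) as CD138+ and reporter positive. Each of the 6 groups of genotype and population had 2 libraries, 12 in all. The labels do not say whether the replicates came from separate mice or cultures, so p-values measure only the spread between these libraries. The sorts were bulk samples, in which fewer cells of a type and less RNA per cell cannot be told apart.

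A B cell that becomes a plasma cell switches on Blimp1, represses the B cell program and builds up the secretory pathway for antibody. The reporter marks cells that have begun this change before CD138 (Sdc1), a surface proteoglycan of plasma cells, appears. Mzb1 is a chaperone partner of the endoplasmic reticulum that assists antibody secretion and integrin function, and the series asks how it acts downstream of Blimp1.

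The sort markers followed the labels. Sdc1 was at 0.978 to 1.43 FPKM in activated B cells, 3.24 to 5.24 in pre-plasmablasts and 66.5 to 98.4 in plasmablasts. Prdm1, the reporter gene, was at 19.2 to 25.4, 233 to 324 and 218 to 263 FPKM, so the 2 reporter-positive stages overlapped. Mzb1, the targeted gene, was at 9926 and 10066 FPKM in wt and at 871 and 899 FPKM in ko pre-plasmablasts, so transcripts were lower in ko but still counted. Library totals ran from 418966 to 581262 FPKM, and depth in reads is unknown because the files hold no counts. The libraries also differed beyond their groups. Small RNA genes took 14.2% of all FPKM in ko PrePB 2 and 0.974% to 5.69% in the other libraries. Libraries of wt replicate 1 held Xist at 33.3 to 81.4 FPKM and Ddx3y at 0 to 0.0479 FPKM, whereas the other libraries held Ddx3y at 15.7 to 22.0 FPKM. Xist is a transcript of female cells and Ddx3y a gene of the Y chromosome. Replicate 1 of wt was thus female and every other library male, so the 2 wt replicates came from different mice. In wt, replicate and sex cannot be told apart, and ko had no female library. The ratios of low values (under 0.5 FPKM) between libraries also split them into one set with all wt libraries, ko ActB 1 and ko PrePB 1 and another with ko ActB 2, ko PrePB 2 and both ko PB libraries. The most frequent ratio was shared by 2.13% to 4.89% of low genes across the sets and by 7.70% to 20.5% within them. In plasmablasts this split and the genotype cannot be told apart.

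Together the 61 genes took 0.393% to 0.431% of all FPKM in activated B cells, 0.843% to 1.27% in pre-plasmablasts and 0.315% to 0.501% in plasmablasts. The pre-plasmablast mean exceeded the activated B cell mean by 0.58 to 5.54 on the log2 scale (median 1.43) and the plasmablast mean by 0.51 to 3.49 (median 0.80). These differences chose the genes and are given with no test. The smaller of both excesses reached 1 in 13 members and lay between 0.5 and 1 in the other 48. Plasmablasts stayed above activated B cells by 0.5 or more in 30 members, fell below them by as much in 3 and lay within 0.5 in 28. With no such minimum, the plasmablast mean was above the activated B cell mean in 49 members and below it in 12, so by sign alone most members stayed above their starting level. Levels were mostly low. The mean in pre-plasmablasts was under 10 FPKM in 31 members, 10 to 100 FPKM in 25 and 100 FPKM or more in 5, with a median of 9.94.

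All 4 pre-plasmablast libraries lay above all 8 other libraries in 37 of the 61 members, against 1.15% of all genes tested, a contrast that the rule itself used. Within a genotype and replicate number, pre-plasmablasts were highest in all 4 sets of libraries for 58 members. In Prg3 and Nuak1 this held in 3 of 4. In Gm6644, singled out after its values were seen, it held in 0 of 4: its plasmablast libraries ranged from 0.00105 to 13.3 FPKM, and its smaller excess was 0.05 without wt PB 1 and 0.27 without ko ActB 1.

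Apoe led the set. It encodes apolipoprotein E, a carrier of cholesterol and other lipids that macrophages and liver secrete in quantity. Apoe was at 87.1 and 83.1 FPKM in wt activated B cells, 1237 and 1757 in wt pre-plasmablasts and 92.6 and 130 in wt plasmablasts. In ko cells the values were 43.9 and 84.7, then 1466 and 2090, then 307 and 321 FPKM. The 4 pre-plasmablast libraries did not overlap any other. On the FPKM + 1 scale the pre-plasmablast mean was 22.0-fold the activated B cell mean and 8.61-fold the plasmablast mean. In the mouse gene order (RefSeq, GRCm38.p6) Apoe lies beside Apoc1, Apoc4 and Apoc2, other apolipoproteins, on one side and Tomm40, a mitochondrial import channel, on the other. Apoc2 was listed at 0 in all 8 activated B cell and plasmablast libraries and at 0.397, 1.28, 1.15 and 2.15 FPKM in pre-plasmablasts. Apoc1 was listed at 0 throughout, and Tomm40 was at 97.5 ± 9.45, 82.6 ± 10.2 and 78.6 ± 7.29 FPKM (SD, n = 4) in the 3 stages, so the pattern of Apoe was not that of the whole neighbourhood. Here and below, the 4 libraries of an SD are 2 wt and 2 ko, so it includes any difference between genotypes.

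Markers of other cell types were read in the same libraries. Of 20 macrophage and monocyte genes, 14 were under 1 FPKM in every pre-plasmablast library. C1qa, C1qb and C1qc were at 0 there, and Csf1r, the macrophage growth factor receptor, did not exceed 0.0309 FPKM. The list summed to 98.1 to 148 FPKM in activated B cells, 27.3 to 46.0 in pre-plasmablasts and 50.3 to 72.2 in plasmablasts. Itgam, an integrin chain, made up most of the fall in the sum, from 77.4 to 122 FPKM down to 2.46 to 14.3. Cd68, a lysosomal protein, went the other way, from 8.27 to 10.2 FPKM up to 13.2 to 22.0, as did Ly6c2, a surface protein, from 0.543 to 1.67 FPKM up to 6.35 to 10.1. Of the T cell genes 11 of 15 were under 1 FPKM in every pre-plasmablast library, with Cd3e at 0. The others were Cd247 at 0.124 to 1.47 FPKM, Cd3g at 2.60 to 4.22, Lck at 6.09 to 8.94 and Cd28 at 10.2 to 16.1. Of the killer cell genes 8 of 11 were under 1 FPKM, with Gzmb at 0. The others were Eomes at 0.648 to 1.30 FPKM, Prf1 at 0.515 to 1.55 and Nkg7 at 0.171 to 1.13. The part of other cell types in the members' levels was not tested.

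**Figure D1:**
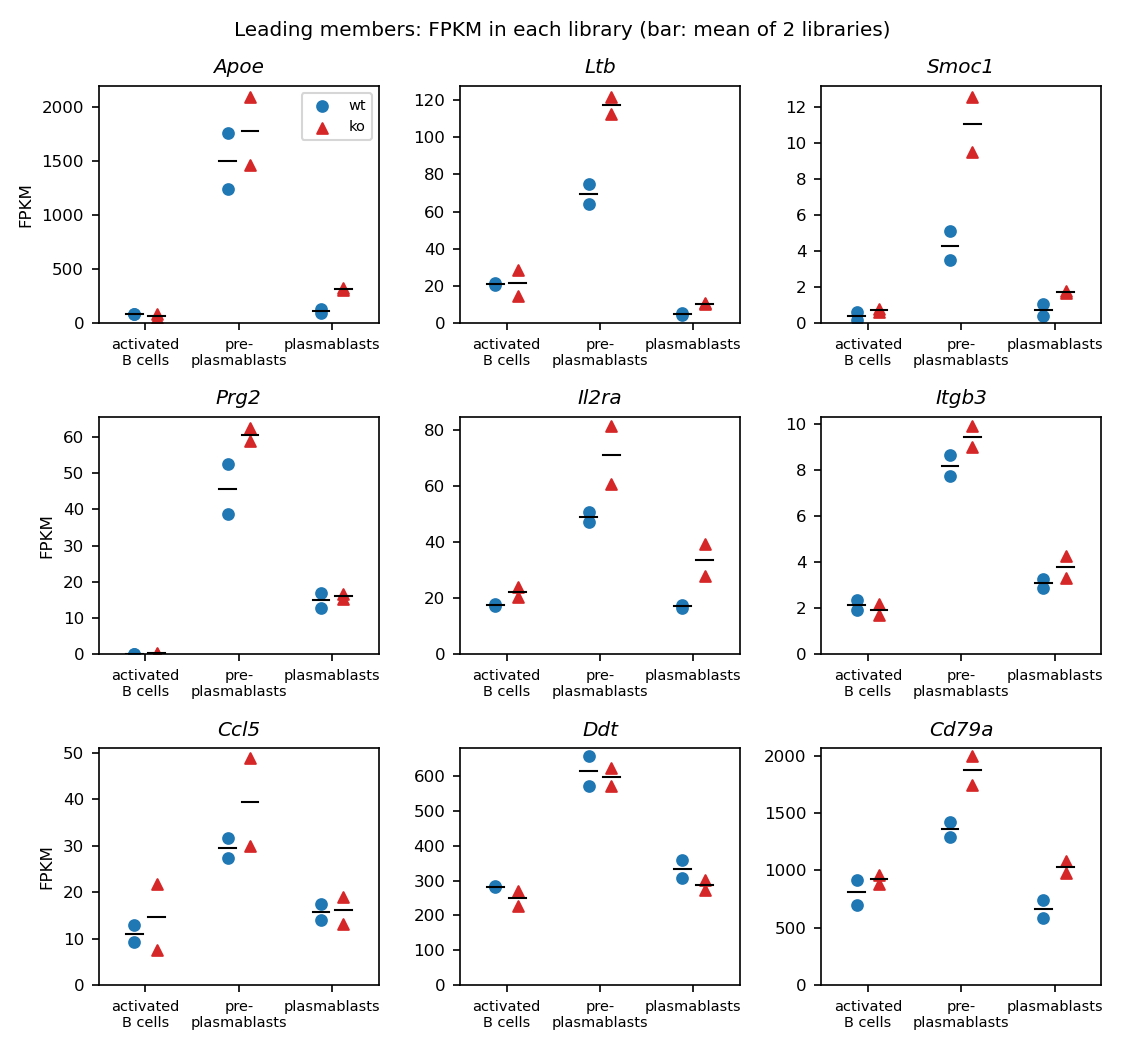
FPKM (vertical axis, from 0) of 9 members in activated B cells, pre-plasmablasts and plasmablasts, with each wt library as a circle, each ko library as a triangle and the mean of 2 libraries as a bar. Apoe reaches 1237 to 2090 FPKM in pre-plasmablasts and stays at or below 321 FPKM elsewhere.

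Ltb came next. It encodes lymphotoxin beta, a membrane-bound ligand of the tumor necrosis factor (TNF) family through which B cells maintain the structure of lymphoid tissue. Ltb was at 20.3 and 21.4 FPKM in wt and 14.7 and 28.6 FPKM in ko activated B cells. It was at 63.9 and 75.1 FPKM in wt and 122 and 113 FPKM in ko pre-plasmablasts. In plasmablasts it was at 5.15 and 4.41 FPKM in wt and at 10.9 and 9.97 FPKM in ko. Ltb is 1 of the 3 members that ended 0.5 or more below their starting level: every plasmablast library lay under every activated B cell library. Its partner genes did not share the peak. Tnf, the neighbouring gene, was at 4.14 ± 1.02 FPKM in activated B cells, 0.326 ± 0.150 in pre-plasmablasts and 0.292 ± 0.0665 in plasmablasts (SD, n = 4), and Lta, the gene after it, was at 1.16 ± 0.353, 0.0982 ± 0.0719 and 0.0459 ± 0.0917. Among the 25 other tested genes of the list of TNF ligands and receptors, 2 (8%) had their highest mean in pre-plasmablasts, beside 15.3% of all genes other than members.

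The sequence before the start of Ltb is shown because its single match to a motif of the NF-kappaB factors, which control TNF family genes, lies close to the start. The window is chr17:35194377-35194506 (plus strand, RefSeq, GRCm38.p6), the 130 bases before the start, with the match (GGGA, any 4 bases, CC, found on the reverse strand) in capitals.
Ltb: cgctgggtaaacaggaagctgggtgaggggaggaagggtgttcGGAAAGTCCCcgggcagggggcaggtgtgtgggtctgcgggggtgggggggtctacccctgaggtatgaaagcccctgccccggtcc
The same letters were found in 10 of the 43 members with a promoter in the RefSeq table (23.3%) and in 25.9% of the promoters of all tested genes. The match is a description of the letters and shows no binding.

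Further members encode secreted products. Smoc1, a calcium-binding matrix protein, was at 3.48 and 5.10 FPKM in wt and 12.6 and 9.54 FPKM in ko pre-plasmablasts, and no library of the other stages exceeded 1.77 FPKM. Ccl5, a chemokine that attracts T cells and monocytes, was at 12.9 ± 6.37, 34.5 ± 9.81 and 15.9 ± 2.81 FPKM (SD, n = 4) in the 3 stages, in order. Ddt, a cytokine-like relative of macrophage migration inhibitory factor, was at 266 ± 25.9, 606 ± 43.0 and 310 ± 36.9 FPKM. Guca2b, the precursor of the gut peptide uroguanylin, reached 4.76 ± 2.17 FPKM and Crisp1, a secreted protein best known from the epididymis, 6.65 ± 2.01 FPKM in pre-plasmablasts. Crisp1 was listed at 0 in all 4 activated B cell libraries and was at 1.80 to 6.53 FPKM in plasmablasts, which overlapped the pre-plasmablasts. Adamts7, a secreted metalloproteinase, was at 1.96 ± 0.292, 5.74 ± 1.81 and 1.46 ± 0.923 FPKM.

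Prg2 had the widest rise from activated B cells, 5.54 on the log2 scale. It encodes the major basic protein of eosinophil granules and is also a marker of plasma cells. Prg2 was at 0 to 0.370 FPKM in activated B cells, at 38.6 and 52.5 FPKM in wt and 62.5 and 58.9 FPKM in ko pre-plasmablasts, and at 12.8 to 17.0 FPKM in plasmablasts. The 3 stages did not overlap. Without Prg2 the list of granulocyte, mast cell and basophil markers summed to 2.42 to 3.63 FPKM over 17 genes in pre-plasmablasts, 0.640 to 1.42 in activated B cells and 2.52 to 5.06 in plasmablasts.

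Prg2 stood in a run of members along the chromosome. In the RefSeq gene order (GRCm38.p6) Prg2, its relative Prg3 and P2rx3, an ATP-gated ion channel, follow each other with no coding gene between. Prg3 was at 0.206 ± 0.161, 3.31 ± 1.59 and 1.85 ± 0.964 FPKM (SD, n = 4) and P2rx3 at 2.22 ± 0.157, 13.9 ± 6.13 and 8.38 ± 2.95 FPKM. In wt, Prg3 hardly differed between pre-plasmablasts (1.54 and 2.86 FPKM) and plasmablasts (1.63 and 2.53 FPKM). Its smaller excess was 0.04 in wt and 1.14 in ko libraries, so Prg3 is a member through the ko libraries. The flanking genes Slc43a3 (51.2 ± 5.41 FPKM in pre-plasmablasts) and Ssrp1 (158 ± 8.44) had pre-plasmablast excesses over activated B cells of 0.11 and -0.40. P2rx3 overlaps Ssrp1 on the opposite strand, and the sources used here do not say whether the counting used strand. Ssrp1 fell from 209 through 158 to 137 FPKM over the stages, so the 2 genes did not move alike.

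A further 2 pairs of members are direct neighbours. Il2ra and Il15ra, the specific alpha chains of the interleukin 2 and interleukin 15 receptors, adjoin, and so do Cfap74, a gene of motile cilia, and Tmem52, a little-studied membrane protein. Gabrd, a GABA receptor subunit beside Cfap74, missed only the level: its means were 0.22, 1.71 and 1.09 on the log2 scale. Tmem52 was at 0 to 0.166 FPKM in activated B cells, 17.3 to 24.4 in pre-plasmablasts and 6.42 to 21.0 in plasmablasts. Its high plasmablast library was ko PB 1, at 21.0 FPKM, which overlapped the pre-plasmablasts. Ddt and Gstt1 have 1 coding gene between them, Gstt3, a second glutathione S-transferase. Gstt1 was at 3.25 ± 0.870, 11.6 ± 3.0 and 4.28 ± 1.41 FPKM (SD, n = 4), and Gstt3 at 19.1 ± 1.62, 25.0 ± 3.59 and 16.9 ± 1.78. Gbp4 and Lrrc8b have 2 coding genes between them, and Hspa12b and Cdc25b have 3. How often unrelated genes lie this close was not tested.

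**Figure D2:**
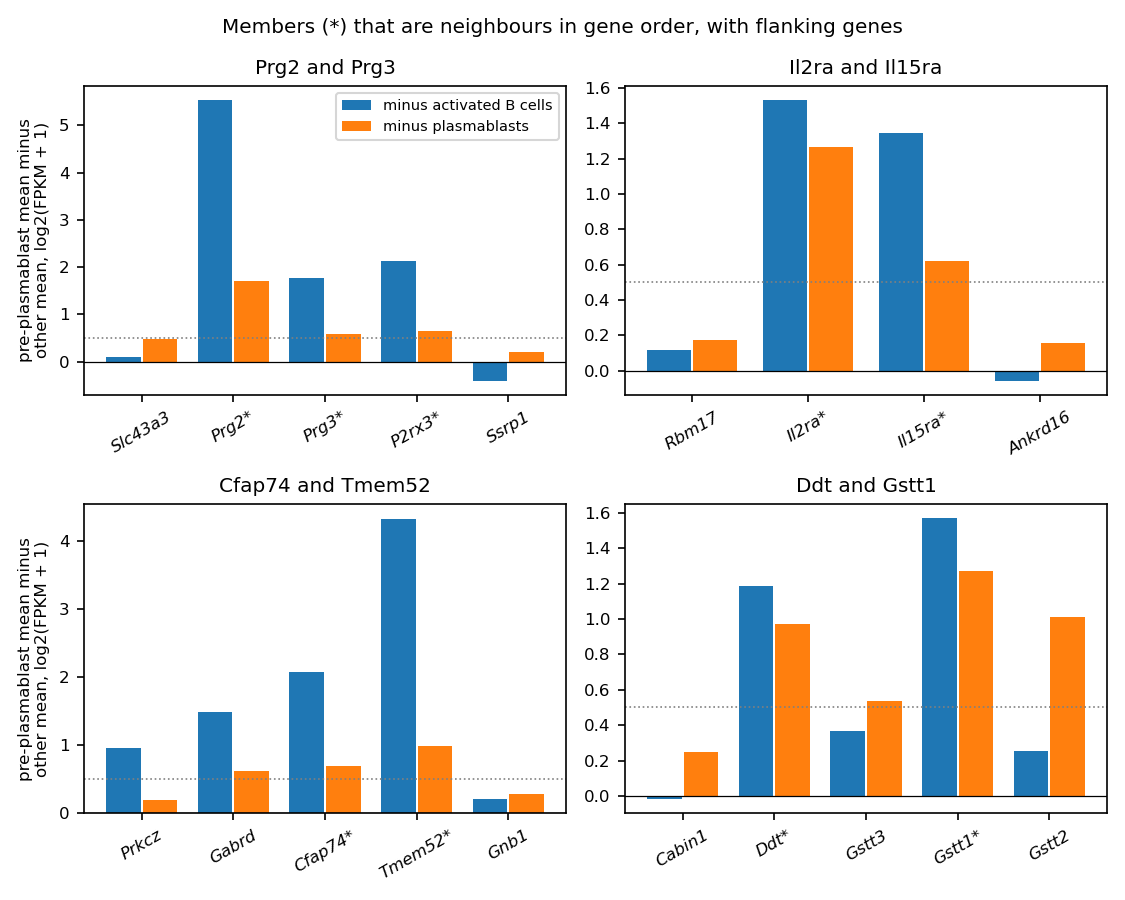
Pre-plasmablast mean minus the activated B cell mean (blue) and minus the plasmablast mean (orange), in log2(FPKM + 1), for 4 runs of genes in chromosome order, members marked with an asterisk and the rule's 0.5 as a dotted line. The outer genes of the runs lie below 0.5 in at least 1 of their bars, and Gabrd passes both bars but not the level.

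Receptors and adhesion molecules formed the next group. Il2ra (CD25) was at 17.0 and 17.8 FPKM in wt and 23.8 and 20.5 FPKM in ko activated B cells. It was at 47.3 and 50.8 FPKM in wt and 81.4 and 60.7 FPKM in ko pre-plasmablasts, then at 17.6 and 16.5 FPKM in wt and 39.3 and 27.9 FPKM in ko plasmablasts. Pre-plasmablasts were the highest stage in both genotypes, and wt plasmablasts were back at the level of wt activated B cells. Il15ra was at 3.95 ± 0.425, 11.6 ± 1.12 and 7.20 ± 1.01 FPKM (SD, n = 4). Of the 30 other tested cytokine receptors, 2 (6.67%) had their highest mean in pre-plasmablasts.

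Both integrin members were chains of low abundance with little spread. Itgb3, the beta3 chain of the vitronectin and fibrinogen receptors, was at 2.03 ± 0.292, 8.80 ± 0.899 and 3.43 ± 0.584 FPKM (SD, n = 4). Itga6, the alpha6 chain of laminin receptors, was at 1.52 ± 0.393, 6.40 ± 0.617 and 2.56 ± 0.153 FPKM. In both genes the pre-plasmablast libraries overlapped no other library. Actn1, an actin crosslinker at integrin attachments that was singled out after its values were seen, was at 3.09 ± 0.635, 5.61 ± 0.840 and 3.25 ± 0.668 FPKM. Among the 36 other tested genes of the actin and integrin list, 2 (5.56%) peaked in mean in pre-plasmablasts, and the median of these 36 lay 0.92 lower in pre-plasmablasts than in activated B cells.

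The B cell receptor component Cd79a and its early B cell companion Vpreb3 were the most abundant members after Apoe, with Ddt. Cd79a, the signalling chain that B cell receptors need at the surface, was at 697 and 919 FPKM in wt and 886 and 957 FPKM in ko activated B cells. Pre-plasmablasts held 1296 and 1422 FPKM in wt and 1999 and 1747 FPKM in ko, and plasmablasts held 586 and 741 FPKM in wt and 1084 and 981 FPKM in ko. Cd79b, the partner chain, had no peak, at 1401 ± 200, 1075 ± 81.5 and 929 ± 46.5 FPKM (SD, n = 4). Vpreb3 was at 199 ± 24.9, 390 ± 98.9 and 223 ± 55.6 FPKM. H2-Eb2, a chain of MHC class II, was at 5.51 ± 0.441, 9.24 ± 0.486 and 4.03 ± 0.933 FPKM, whereas none of the 14 tested genes of the class II presentation list was a member. The 32 other B cell identity genes had a median 0.92 lower in pre-plasmablasts than in activated B cells, and 5 of them (15.6%) peaked in mean in pre-plasmablasts. These B cell members ran opposite to most of their list.

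The octamer, ATGCAAAT, is the binding motif of Oct factors and a classic element of B cell promoters. It was found on either strand in the 250 bases before the start of 4 of 43 members (9.30%), beside 1.55% of tested genes and 1.81% of all promoters in the table. The 4 genes were Vpreb3, Gadd45a, Hpgds and Itpr3. Their sequences are shown to place the motif, with each match in capitals (RefSeq, GRCm38.p6). The windows are chr10:75948219-75948298 (plus strand) for Vpreb3, chr6:67037461-67037540 (minus) for Gadd45a, chr6:65144861-65144940 (minus) for Hpgds and chr17:27057241-27057303 (plus) for Itpr3.
Vpreb3: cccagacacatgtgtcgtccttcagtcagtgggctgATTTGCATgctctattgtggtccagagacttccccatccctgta
Gadd45a: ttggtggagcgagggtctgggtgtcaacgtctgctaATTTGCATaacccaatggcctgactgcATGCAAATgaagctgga
Hpgds: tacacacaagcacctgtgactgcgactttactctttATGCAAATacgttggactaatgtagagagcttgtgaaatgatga
Itpr3: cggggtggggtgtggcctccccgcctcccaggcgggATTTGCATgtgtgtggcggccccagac
Gadd45a has the motif on both strands. First bases of the matches lie 45 bases before the start in Vpreb3, 97 and 70 in Gadd45a, 174 in Hpgds and 27 in Itpr3. With 4 matches the share is imprecise, and 15 motifs were searched.

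These 4 genes did not otherwise look alike. Gadd45a, a growth arrest gene induced by DNA damage, was at 13.7 ± 0.853, 47.7 ± 13 and 24.2 ± 8.32 FPKM (SD, n = 4). Hpgds, which makes prostaglandin D2, was at 2.04 ± 0.249, 7.32 ± 0.697 and 3.99 ± 0.719 FPKM. Itpr3, a calcium release channel of the endoplasmic reticulum, was at 23.2 ± 4.61, 55.5 ± 9.39 and 38.1 ± 3.21 FPKM. The other motifs went both ways. The GC box (GGGCGG) was in 46.5% of member promoters and 64.7% of tested genes, and the E2A-type E-box (CAGCTG) in 23.3% and 13.7%. Member promoters had a median GC content of 56.6% and 11 CpG pairs, against 60.0% and 16 in tested genes, which bears on any motif with C and G. The CCAAT box (CCAAT) was in 39.5% and 41.2%, the core of the endoplasmic reticulum stress element (CCACG) in 30.2% and 47.5%.

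Interferon-induced genes gave 3 members. Isg15, a ubiquitin-like modifier, was at 59.6 and 57.8 FPKM in wt and 49.3 and 46.0 FPKM in ko activated B cells. Pre-plasmablasts held 106 and 106 FPKM in wt and 71.5 and 76.8 FPKM in ko, and plasmablasts 72.6 and 72.8 FPKM in wt and 36.6 and 45.8 FPKM in ko. The ko pre-plasmablasts overlapped the wt plasmablasts, so the stages separated only within a genotype. Oasl1, an antiviral oligoadenylate synthetase relative, was at 19.7 ± 4.36, 54.0 ± 8.02 and 31.3 ± 7.61 FPKM (SD, n = 4). Gbp4, a guanylate-binding protein, was the member nearest the limit of 0.5, at 4.06 ± 0.758, 8.37 ± 2.12 and 5.48 ± 0.697 FPKM, and it overlaps Gbp8 and Gbp9 on its own strand. Of the 35 other tested interferon response genes, 6 (17.1%) peaked in mean in pre-plasmablasts and their median was 0.19 lower than in activated B cells, so the peak was not a feature of the list.

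The promoter of Isg15 is shown because it holds 3 overlapping matches to the interferon response element (GAAA, any 2 bases, GAAA), in capitals as 1 stretch, in the 130 bases before the start. The window is chr4:156200819-156200948 (minus strand, RefSeq, GRCm38.p6).
Isg15: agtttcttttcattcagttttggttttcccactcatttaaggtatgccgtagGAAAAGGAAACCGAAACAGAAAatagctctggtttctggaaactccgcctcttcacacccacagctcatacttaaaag
The element was in 3 of 43 member promoters (6.98%; Isg15, Gstt1 and Sgk1) and in 3.29% of those of tested genes.

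Several members take part in signalling or vesicle traffic. Arl5c, a small GTPase of the ARF family, was at 38.4 ± 7.49, 92.1 ± 15.8 and 31.5 ± 2.77 FPKM (SD, n = 4). Ralgds, which activates Ral GTPases, was at 10.7 ± 2.65, 29.9 ± 6.68 and 15.9 ± 2.11 FPKM. In both of them pre-plasmablasts stood clear of the other stages. Rgs16, a brake on G protein signalling, was at 0.559 ± 0.325, 3.72 ± 1.69 and 1.94 ± 0.996 FPKM, and Gnb3, a G protein beta subunit, at 2.66 ± 0.749, 7.94 ± 2.39 and 4.09 ± 0.570 FPKM. Sgk1, a kinase that controls ion transport, was at 2.85 ± 0.575, 8.12 ± 3.11 and 4.63 ± 1.05 FPKM. The libraries of Rgs16 and Sgk1 overlapped between pre-plasmablasts and plasmablasts with both genotypes pooled. Within each genotype and replicate number, pre-plasmablasts were still the highest stage for both genes.

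Transporters and enzymes included some of the members that stayed high in plasmablasts. Atp1b1, the beta1 subunit of the sodium pump, was at 4.68 ± 0.230, 46.6 ± 18.7 and 29.1 ± 11.6 FPKM (SD, n = 4). Slco4a1, an organic anion transporter, was at 10.1 ± 2.5, 64.6 ± 7.42 and 44.6 ± 5.89 FPKM. Cyp4f18, a cytochrome P450 that breaks down leukotriene B4, was at 6.14 ± 1.99, 34.1 ± 10.2 and 17.2 ± 4.85 FPKM. Plasmablasts lay well above activated B cells in all 3 of these. Spns3, of a family of sphingolipid transporters, was at 3.58 ± 1.33, 10.7 ± 5.10 and 5.17 ± 2.14 FPKM. Its pre-plasmablast mean was 6.37 FPKM in wt and 15.1 FPKM in ko. Xylt1, which starts the sugar chains of proteoglycans, was at 2.82 ± 0.384, 9.94 ± 1.77 and 6.53 ± 0.908 FPKM, 0.53 above plasmablasts and so just inside the rule.

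Only 1 member belonged to the mitosis list, Cdc25b, the phosphatase that switches on cyclin-dependent kinases. It was at 50.3 ± 1.5, 158 ± 17.2 and 91.3 ± 12.3 FPKM (SD, n = 4). Sox4, a transcription factor of early lymphocytes, was at 2.98 and 2.45 FPKM in wt activated B cells, 3.09 and 3.75 FPKM in wt pre-plasmablasts and 1.53 and 1.44 FPKM in wt plasmablasts. In ko its values were 4.13 and 4.07, then 12.6 and 9.43, then 3.04 and 1.99 FPKM. The wt libraries show an excess of only 0.25 over activated B cells and the ko libraries one of 1.22, so Sox4 is a member through the ko libraries. In wt the smaller excess was lower still in Prg3 (0.04), Nuak1 (0.18) and Fam174b (0.22), against 1.14, 0.98 and 0.89 in ko.

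Several members are best known from other tissues and were low here. Rsph1 of ciliary spokes reached 4.10 ± 1.32 FPKM in pre-plasmablasts, Cfap74 reached 5.08 ± 3.18 and Nyx, a retinal proteoglycan, 3.62 ± 0.948 (SD, n = 4). Fndc9 reached 14.9 ± 1.82 FPKM and was singled out after its values were seen: it overlaps Cyfip2 on the opposite strand, which was at 229 FPKM in pre-plasmablasts and also higher there than at 97.7 and 181 FPKM in the other stages. Hspa12b, a distant relative of the HSP70 chaperones, had the fifth largest smaller excess (1.39) at a low level, with 0.293 ± 0.0876, 3.42 ± 1.51 and 0.632 ± 0.315 FPKM in the 3 stages. A further 15 members had pre-plasmablast means of 3.15 FPKM (Ldlrad4) to 19.8 FPKM (Serpinf1, an inhibitor of blood vessel growth) and smaller excesses of 0.52 (Pxdc1) to 0.97 (AA467197). Besides these 4 they were Fam174b, Gm6194, Hcrtr2, Lrrc8b, Mreg, Nuak1, Pgpep1l, Pinlyp, Ppm1h, Rell1 and 0610039K10Rik. Of the 61 members, RefSeq gives 58 as protein coding, 2 as transcribed pseudogenes and 1 as a long noncoding RNA. In all, 18 members overlap another listed gene in the GENCODE annotation, 6 on the same strand and 12 on the opposite strand. Reads from such pairs may not be told apart.

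**Figure D3:**
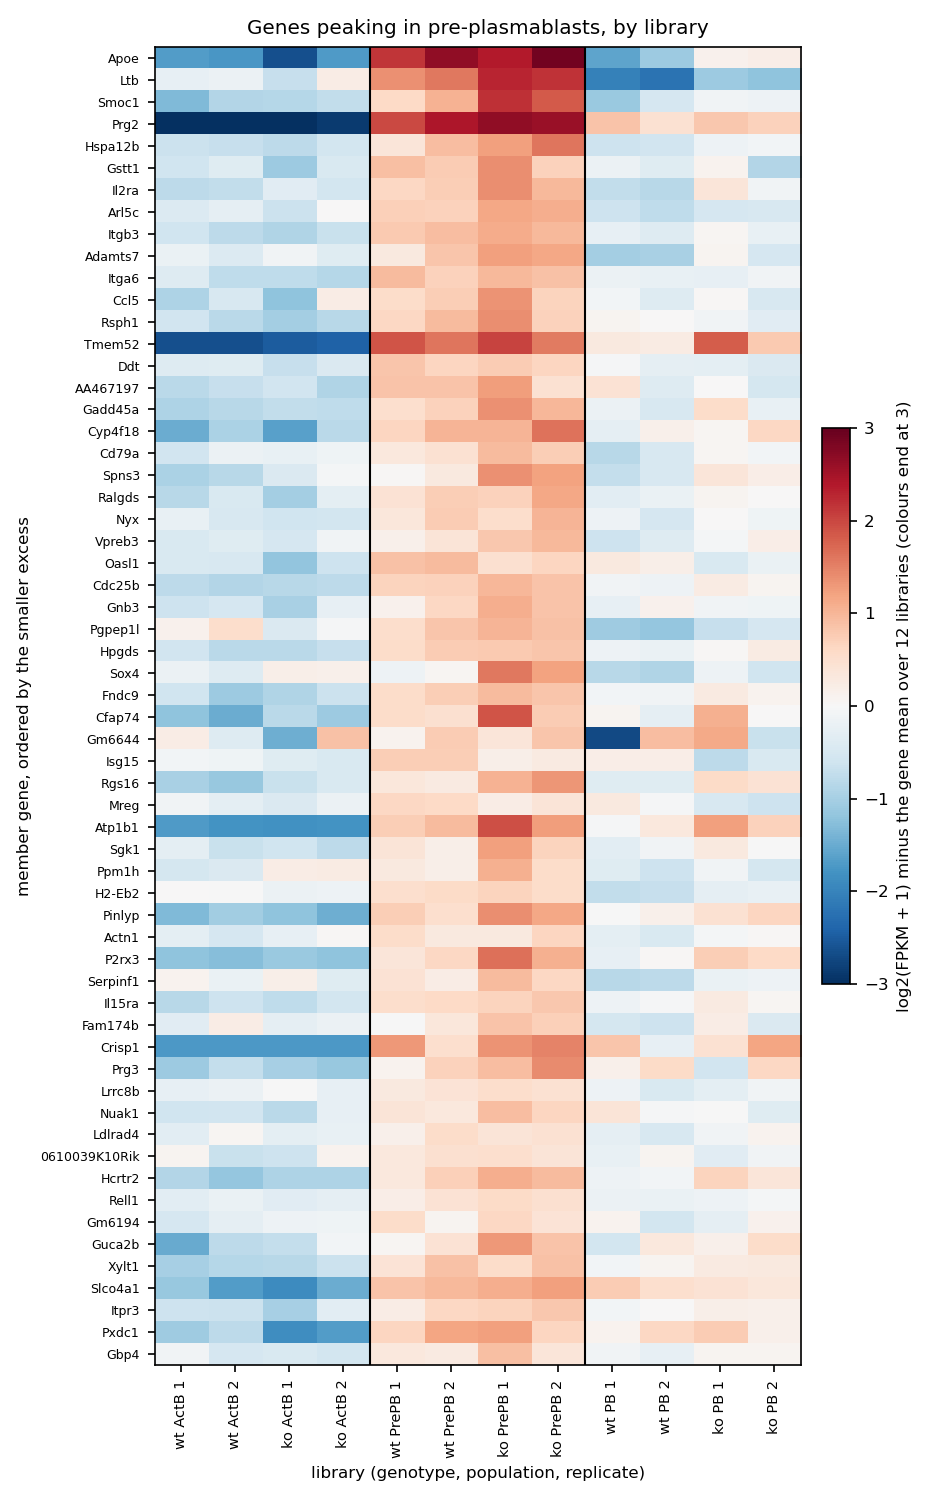
Each row is a member (1 is not shown), ordered by the smaller excess from Apoe (top) to Gbp4, each column a library, and colour gives log2(FPKM + 1) minus the gene's mean over the 12 libraries (red higher, blue lower, ending at 3). The 4 middle columns, pre-plasmablasts, are red in nearly every row, and Gm6644 is irregular.

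The limit of 0.5 cut through closely spaced values. Just inside were Gbp4 (0.514), Pxdc1 (0.516), Itpr3 (0.518), Slco4a1 (0.527) and Xylt1 (0.532), and just outside were Cd5 (0.498), Malat1 (0.496), Ets2 (0.495), Abi3 (0.490) and Plcg1 (0.490). By level the nearest members were Prg3 (a mean of 2.03), Ldlrad4 (2.05) and Hspa12b (2.08), and the nearest genes outside were Cyp11a1 (1.98), Rgs13 (1.96) and D5Ertd605e (1.93).

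Since the rule averaged both genotypes, the same rule was applied to wt and to ko libraries alone and read in the other genotype, which had no part in that choice. In wt alone 52 genes met it. Of these, pre-plasmablasts had the highest mean in ko for 50 (96.2%) and both excesses reached 0.5 in ko for 37 (71.2%), beside 17.3% and 1.00% of 10854 genes. In ko alone 90 genes met it, of which 84 (93.3%) peaked in wt and 46 (51.1%) had both excesses there, beside 15.4% and 0.755%. Of the 61 members, 42 met the rule in wt alone, 55 in ko alone, 37 in both and 1 in neither, and all 61 had their highest mean in pre-plasmablasts in each genotype.

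**Figure D4:**
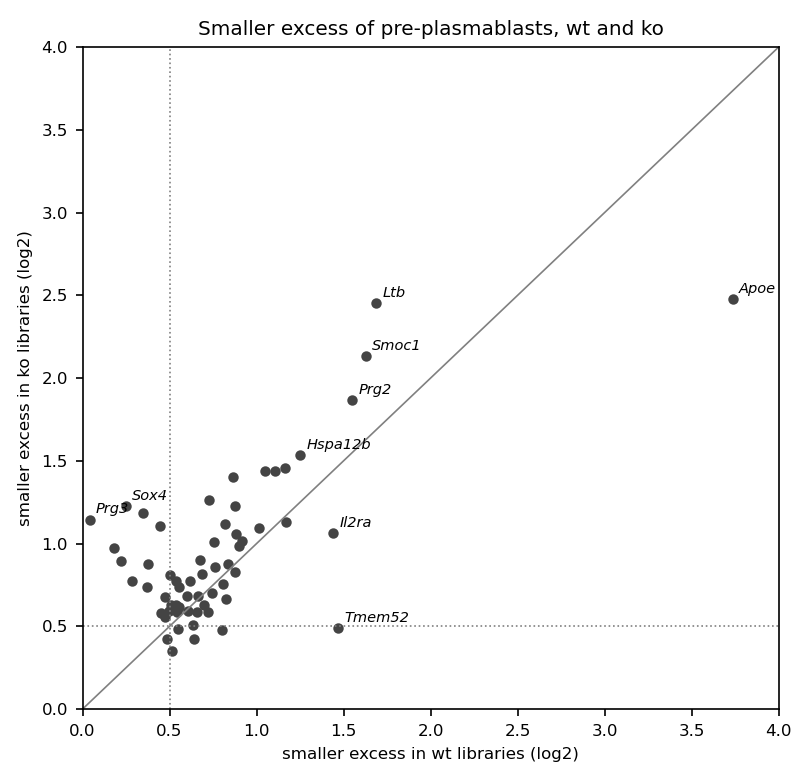
The smaller of the 2 excesses of pre-plasmablasts (log2) in wt libraries (horizontal) and in ko libraries (vertical) for the 61 members, with dotted lines at 0.5 and the line of equality. Apoe has 3.74 in wt and 2.48 in ko, and Sox4 has 0.25 in wt and 1.22 in ko.

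The loss of Mzb1 was then compared with wt within each population, a contrast that the rule averaged over. In pre-plasmablasts 2 members rose in ko (limma, Benjamini-Hochberg adjusted over 11069 genes, threshold 0.05), beside 0.117% of all genes called. Sox4 was 1.44 higher on the log2 scale (SE 0.18, adjusted p = 0.0108). Spns3 was 1.13 higher (SE 0.16, adjusted p = 0.0221), at 5.76 and 6.99 FPKM in wt and 15.9 and 14.2 FPKM in ko. For both genes the ko libraries lay well above the wt libraries. Sox4 is a member through its ko pre-plasmablast values, so its call is not independent of its choice and is a description. Both calls depended on single libraries: without wt PrePB 1 the adjusted p was 0.128 for Sox4 and 0.230 for Spns3, without wt PrePB 2 it was 0.0538 and 0.0666, and without ko PrePB 1 it was 0.145 and 0.225. Without ko PrePB 2 Spns3 alone was lost (adjusted p = 0.109).

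In plasmablasts 4 members passed the test, beside 0.407% of all genes called. Isg15 fell by 0.81 (SE 0.10, adjusted p = 0.0063). Rgs16 rose by 0.86 (SE 0.15, adjusted p = 0.0415), from 1.08 and 1.10 FPKM in wt to 2.97 and 2.63 FPKM in ko. Il2ra rose by 0.92 (SE 0.16, adjusted p = 0.0465) and Spns3 by 0.87 (SE 0.16, adjusted p = 0.0483), the latter from 3.02 and 3.71 FPKM to 7.47 and 6.49 FPKM. None of the 4 overlapped between genotypes. Isg15 was below wt in all 3 populations with no overlap (6.04% of all genes), as was Oasl1 (-0.57 in plasmablasts, SE 0.16, adjusted p = 0.129), while the third interferon member, Gbp4, was 0.26 higher (SE 0.18, adjusted p = 0.523). Apoe was 1.51 higher in ko plasmablasts and missed the threshold (SE 0.29, adjusted p = 0.0590), and Ltb was 0.98 higher (SE 0.22, adjusted p = 0.0885).

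The plasmablast calls carry a limit of the libraries. A term for the split of low values rests only on ko replicate 1 against 2 in activated B cells and pre-plasmablasts. In plasmablasts the split matches the genotype, so values with this term are extrapolated and cannot separate the split from the genotype. With it, 0 members passed in plasmablasts, and the change was 1.23 for Il2ra, -0.82 for Isg15, 0.63 for Rgs16 and 0.76 for Spns3. Without wt PB 1 or without wt PB 2 the count was 0. It was 1 without ko PB 1, without either wt activated B cell library or without either wt pre-plasmablast library, since all groups share 1 estimate of spread. Markers of other kinds moved with these members. Of B cell identity genes, 34 were tested, of which 2 are members: 4 rose in ko plasmablasts (Blk, Cd72, Pax5 and Spib), 0 fell, and the median change was 0.24. Of the 6 tested macrophage and monocyte genes Itgam rose in ko in pre-plasmablasts (3.44 and 2.46 FPKM in wt, 14.3 and 12.1 FPKM in ko) and in plasmablasts (0.152 and 0.197 FPKM, then 1.67 and 1.06 FPKM). The median change of the 6 was 0.51 and 0.35. The part of these genes in the members' change was not tested.

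In activated B cells 0 of the 61 members passed, beside 0.0542% of all genes. At an unadjusted p under 0.05 there were 4 with a higher and 4 with a lower value in ko, beside 4.43% and 3.64% of all genes. The same counts were 25 and 3 in pre-plasmablasts, beside 7.49% and 7.55%, and 23 and 3 in plasmablasts, beside 7.96% and 8%. The median change of the members was -0.00011 there, 0.34 in pre-plasmablasts and 0.30 in plasmablasts, beside 0.0056, 0.014 and 0.025 for all genes tested. In pre-plasmablasts 40 members had both ko libraries above both wt libraries and 3 had them below, where the shares of all genes were 25.7% and 21.4%. In plasmablasts the counts were 36 and 6, with 28% and 21.2% of all genes. In activated B cells they were 14 and 9, with 18.3% and 17.7%. A gene with high ko values in pre-plasmablasts was more readily chosen by the rule, so these counts are a description. The ko libraries were above wt without overlap in both pre-plasmablasts and plasmablasts for 28 members (13.6% of all genes), and in all 3 populations for 6, Il2ra, P2rx3, Rgs16, Smoc1, Sox4 and Spns3 (5.18% of all genes). Genotypes apart in opposite directions were seen in Pgpep1l between activated B cells and pre-plasmablasts (2.57% of all genes), in Slco4a1 between pre-plasmablasts and plasmablasts (2.2%) and in H2-Eb2, Nyx and Pgpep1l between activated B cells and plasmablasts (2.5%).

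**Figure D5:**
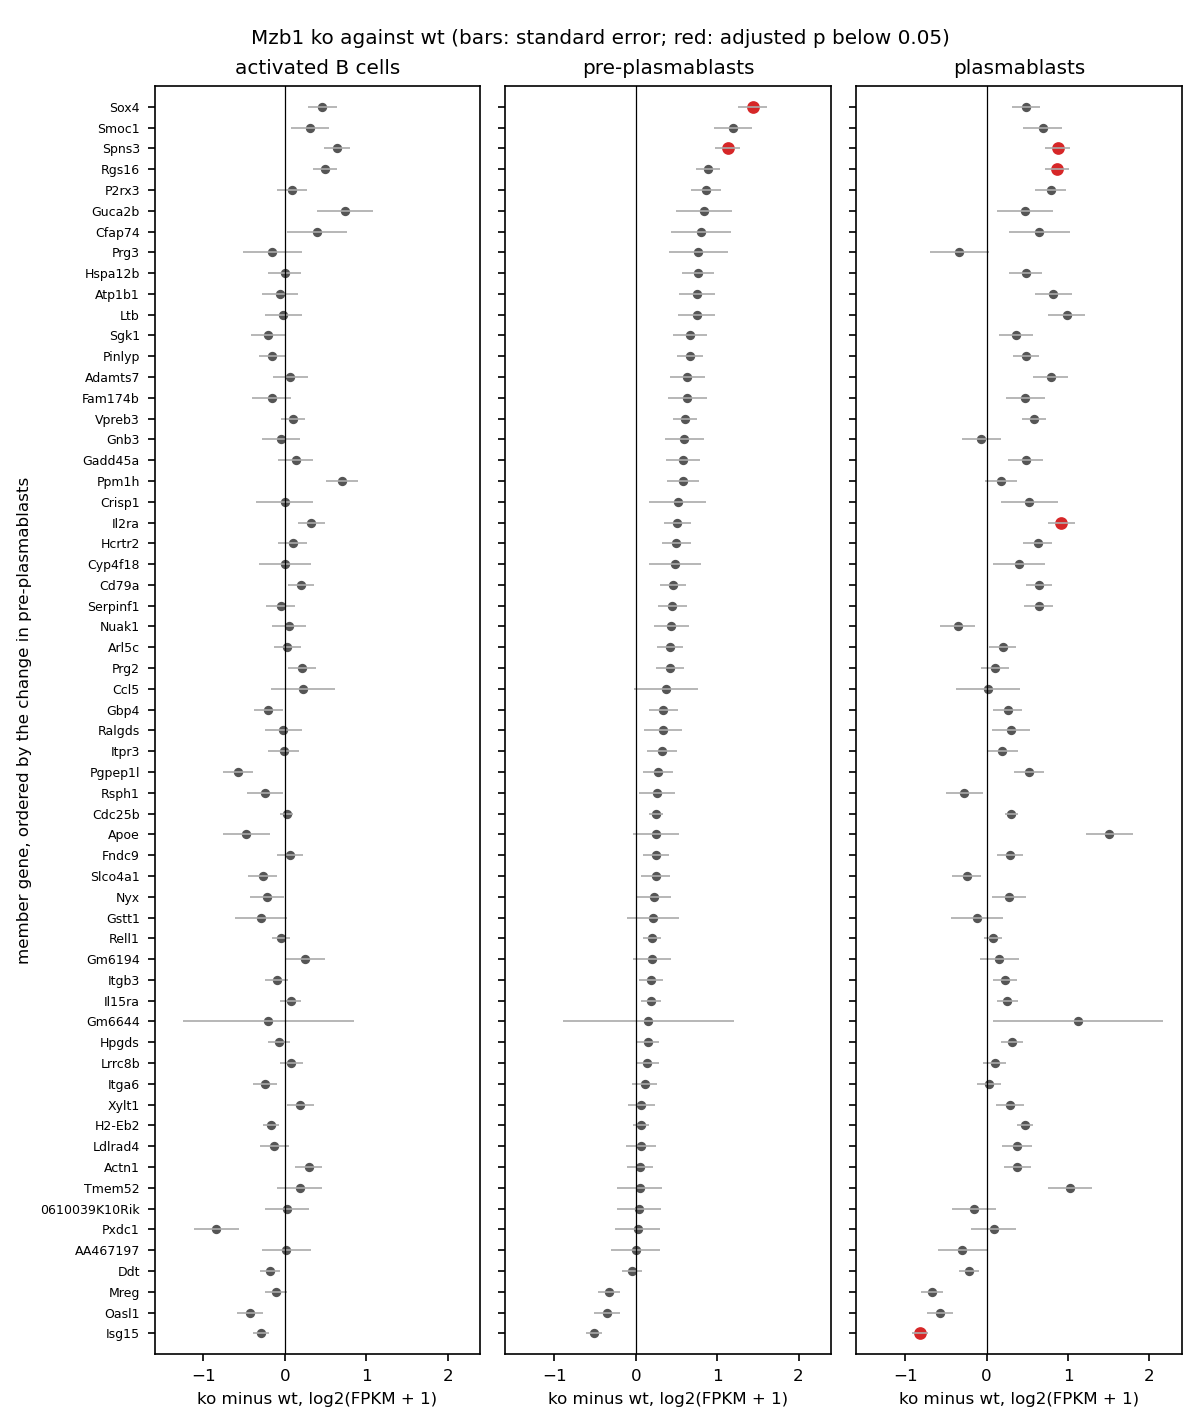
Change of each member but 1 in ko against wt (horizontal axis, log2(FPKM + 1), bars are 1 standard error) in activated B cells, pre-plasmablasts and plasmablasts, ordered by the pre-plasmablast change. Red points have an adjusted p below 0.05: Sox4 and Spns3 in pre-plasmablasts, and Isg15, Rgs16, Il2ra and Spns3 in plasmablasts.

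Whether the height of the peak itself differed between genotypes was tested as an interaction, the pre-plasmablast level minus the mean of both other stages in ko against the same in wt. The peak was higher in ko in 52 members and lower in 9, with a median height of 1.25 in ko and 1.07 in wt, beside 48.5% of all genes with a higher value in ko. The rule takes in more genes from the ko libraries alone (90) than from the wt libraries alone (52), so these counts are a description. With limma 0 members and 0 of all genes (0%) passed. At an unadjusted p under 0.05 there were 9 members with a higher and 0 with a lower peak in ko, beside 1.52% and 1.14% of all genes. Smoc1, which met the rule in each genotype, had a difference of 0.69 (SE 0.29, limma adjusted p = 1.00). For the step from activated B cells to pre-plasmablasts 0 members passed (0.0361% of all genes), with 13 higher and 0 lower at an unadjusted p under 0.05, beside 1.93% and 1.64%. For the step to plasmablasts 0 passed (0% of all genes), with 3 higher and 2 lower, beside 1.26% and 1.2%. Apoe was among the former, since it fell less in ko on leaving the pre-plasmablast stage (1.26, SE 0.41, limma adjusted p = 1.00).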

How the data were processed

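The deposited values are FPKM, 1 file per library with 24325 symbols, made by the authors with TopHat2 2.0.14, Cufflinks 2.2.1, Cuffdiff and Cuffnorm 2.2.1 on the mm9 build, after bcl2fastq 0.3.1 and 2.17.1.14, per the submitters' processing notes. The annotation, the scaling between libraries and the use of strand are not given in the sources used here. Depth is unknown, and no counting interval was computed.

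Values were read as log2(FPKM + 1). Genes at 1 FPKM or more in at least 2 libraries (11069) were fitted with limma 3.58.1 in R 4.3.3 (limma-trend, 1 coefficient per group, 6 residual degrees of freedom, two-sided). The threshold was 0.05 on the p adjusted by Benjamini-Hochberg over these genes. Folds on this scale understate the change of low genes. On simulated data with 200 genes changed by 1 on the log2 scale among 11069, the fit recovered 91.5%, 89.5% and 91.0% in the 3 populations and 77% for the difference in peak height. The changed genes all had a mean above 2 on the log2 scale over the libraries, and the simulated noise was independent between libraries. These shares thus do not cover lower members such as Smoc1 and Hspa12b, or noise shared between libraries. Plots used matplotlib 3.10.9 (Python 3.11.15).

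The members and the gene lists were chosen with earlier results of these data known. Members were named by rule, 50 of 61. Values of 1 member are not reported here. The rule took the 30 largest smaller excesses, members of a list, members called or among the 5 lowest p of a ko comparison, the 15 most abundant, the 15 with the largest spread in pre-plasmablasts and the 5 nearest the limit on excess, with the 5 genes just outside. The other 11 members, genes nearest the limit on level and neighbouring or partner genes were named after their values were seen. Gene order and promoters (250 bases before the start, 43 members matched by symbol) come from RefSeq on GRCm38.p6. Overlaps with other genes come from the GENCODE annotation.

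Replicate numbers are shared by wt and ko in the labels. Across genes, deviations of same-numbered wt and ko libraries from their group means correlated at -0.11, -0.08 and -0.05, so they were not treated as pairs. Same-numbered libraries of 1 genotype in different populations correlated at 0.05 to 0.32, with 4 of the 6 pairs of groups above 0.1. The labels do not say that they share a mouse, and the interactions were refitted with the number within genotype as a block. Alternatives changed the filter, the pseudocount, the scaling, the limits of the rule, the samples and the model terms.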

Additional observations from a re-analysis of the deposited data

Results flagged for a closer look

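In 4 members the ko and wt libraries stood apart without overlap in one population and stood apart the other way in another. None of these differences passed a test: for the step from activated B cells to pre-plasmablasts and for the step to plasmablasts limma gave an adjusted p of 1.00 for each, and the difference between activated B cells and plasmablasts was not tested. Of all genes tested, 2.57%, 2.2% and 2.5% did the same for activated B cells with pre-plasmablasts, pre-plasmablasts with plasmablasts and activated B cells with plasmablasts.

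Pgpep1l, a relative of a peptidase that removes pyroglutamate, changed by -0.57 in ko activated B cells, where wt held 3.39 and 4.76 FPKM and ko 1.96 and 2.88. It was 0.271 higher in ko pre-plasmablasts and 0.519 higher in ko plasmablasts. Slco4a1, the anion transporter, was 0.25 higher in ko pre-plasmablasts and changed by -0.244 in ko plasmablasts. H2-Eb2 of MHC class II was at 3.17 and 3.28 FPKM in wt and 4.75 and 4.92 FPKM in ko plasmablasts, a change of 0.466, after -0.17 in activated B cells. Nyx changed by 0.271 in plasmablasts and by -0.22 in activated B cells.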

How the results depend on the processing

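The number of members was 13 with a minimum excess of 1 and 39 with a minimum mean of 3. Leaving out 1 library at a time gave 50 to 87. Under the 21 other settings all 61 members kept their highest mean in pre-plasmablasts, and 29 kept both excesses at 0.5 or more under all of them. Settings that changed only a limit of the rule or the filter could not alter an excess. The other settings reread values that chose the genes, so these counts are a description. Totals were also made equal over genes other than small RNA genes. The median of all genes tested was then -0.20 for pre-plasmablasts minus activated B cells, against -0.02 as deposited. For plasmablasts minus pre-plasmablasts it was -0.13, against 0.0059 as deposited.

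Members called in ko pre-plasmablasts numbered 0 with no filter, 0 with the compared groups alone, 1 with a term for the split of low values and 0 without wt replicate 1 in any population. In plasmablasts they numbered 1 with no filter, 1 with quantile normalization, 7 with equal totals, 0 with the compared groups alone, 0 with that term and 0 without wt replicate 1. Leaving out 1 library gave 0 to 3 in pre-plasmablasts and 0 to 5 in plasmablasts. The lone library of a group was then assumed to vary like the other groups. Activated B cells and the 3 interactions gave 0 throughout. With the replicate block the counts were 3 in pre-plasmablasts, 6 in plasmablasts and 0 elsewhere. Of 22 settings Sox4 was called in 16 and Spns3 in 14 in pre-plasmablasts, and in plasmablasts Isg15 was called in 17, Il2ra in 8 and Spns3 in 7. Rgs16 was called in 7 of 21. None of these genes changed direction. With 2 libraries per group and no counts, small changes of members under 10 FPKM cannot be told from noise.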

Other observations

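Genes of the lists other than members also differed in how often they were highest in pre-plasmablasts, counted with no minimum excess and given with no test. Among all genes other than members the share was 15.3% (1688 of 11008). In the mitosis list it was 14 of 33 (42.4%), in the class switch and mutation list 9 of 21 (42.9%) and in the DNA replication list 11 of 37 (29.7%). The medians of these lists lay within 0.1 of activated B cells: 0.05, 0.01 and -0.09 on the log2 scale. From pre-plasmablasts to plasmablasts they changed by -0.10, -0.15 and -0.22. The endoplasmic reticulum folding list, the machinery of antibody secretion, behaved otherwise: 2 of 33 (6.06%) were highest in pre-plasmablasts, 31 of 33 were higher in plasmablasts than in pre-plasmablasts, and the median of the list was 2.59 higher in pre-plasmablasts than in activated B cells. NF-kappaB subunits and targets had 1 of 23 (4.35%).

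Lists of other cell types moved with the stages in both directions. The T cell list summed to 12.5 to 18.7 FPKM in activated B cells, 24.3 to 27.0 in pre-plasmablasts and 37.7 to 53.0 in plasmablasts over 15 genes, and the dendritic cell list, which holds genes that plasma cells also express such as Bst2 and Tcf4, to 138 to 146, 273 to 320 and 402 to 455 FPKM over 14 genes. The stromal and endothelial list fell from 42.0 to 70.2 FPKM in activated B cells to 10.5 to 14.2 in pre-plasmablasts. Pecam1 made up nearly all of that sum, at 41.5 to 69.7 and then 9.08 to 13.2 FPKM. Of the 15 genes of that list, 14 were under 1 FPKM in every pre-plasmablast library. Most of the rise of the T cell list was Cd28, at 0.742 to 1.62, 10.2 to 16.1 and 24.8 to 36.3 FPKM in the 3 stages. None of these sums was highest in pre-plasmablasts. By gene, the highest mean was there for 3 of 8 tested dendritic genes (37.5%) and 2 of 3 killer cell genes (66.7%), beside 15.3% of all genes. It was there for 0 of 5 T cell, 0 of 6 macrophage, 0 of 2 erythroid and 0 of 2 stromal genes. In the granulocyte list it was there for Prg2, a member, and for 0 of 2 others.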
